A study of Mus musculus with 6 samples.

Results

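Immediate early genes are transcribed within minutes of a signal, from factors already present in the cell and without new protein synthesis, and their mRNAs are short-lived. The products of the Fos and Jun families pair through leucine zippers into AP-1, a transcription factor that binds the sequence TGACTCA. In the liver these genes are known to be switched on together after partial hepatectomy, during inflammation and by handling or dissociation of the tissue.

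The genes described here are Fos, Fosb, Jun, Junb, Egr1, Atf3, Ier2, Ier3, Myc and Gadd45b, which were chosen by symbol. They are 10 of the 20140 genes of the count table, and all 10 were among the 16370 genes that passed the filter on low counts. RNA with poly(A) tails was sequenced from 6 whole mouse livers, all on day 21 and 2 from each of 3 groups. The sham livers carry the labels control and PBS, with no tumor cell line. The intra-C and intra-S livers carry the label CT26, a colon carcinoma line from BALB/c mice. The labels do not spell these names out. The study's methods describe implantation of CT26 cells into the cecum and into the spleen. In the study day 21 preceded visible liver metastases in the cecal model, and a figure legend labels the intrasplenic model on day 21 as metastatic. If intra-C and intra-S are these models, tumor site and metastatic stage cannot be told apart between them. No genotype, strain, sex or age is given in the labels, and no transgene is named for any group.

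Library totals ranged from 32838321 to 43368309 counts. Levels are given as CPM, counts scaled to a common library size after TMM normalization, and the 3 counts that a count of 0 still allows stand for 0.0679 to 0.0928 CPM. Alb, the main plasma protein of hepatocytes, was the most abundant of the hepatocyte markers in every group. The labelled tissue therefore carried its defining markers. The series calls the livers biological replicates, but the labels do not tie each one to a separate mouse, so p-values measure only the spread between these samples. With 2 livers against 2, a two-sided permutation test can give no p below 0.333, and the p-values below, unless DESeq2 is named, come from edgeR's quasi-likelihood test fitted to all tested genes, with Benjamini-Hochberg adjustment over all of them. The table fitted had 16370 tested genes with all livers and 17564 without intra-S replicate 1. A gene was called where its adjusted p was under 0.05. Changes in whole tissue cannot be told apart from changes in the number of cells of a type, and RNA of CT26 cells in a liver cannot be told apart from that of the mouse's own cells. The libraries were made with a kit that does not mark strand.

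The intra-S livers differed far more from each other than the livers of the other groups did. A chi-square statistic comparing the counts of both replicates over genes, divided by its degrees of freedom, was 337 in intra-S, 24.8 in sham and 73.1 in intra-C. The values of the 10 genes, and the counts or medians of the other gene lists, are therefore given with and without intra-S replicate 1. The fit without it has 1 intra-S liver, so its p-values and calls hold no spread within intra-S. They cannot be set against those with all livers.

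Promoters are given first, to show the sequence just before the start sites. They are those of Atf3 and of the genes called in a comparison below, except Egr1. The source was the RefSeq promoter table for GRCm38.p6, the assembly also named mm10. Its entries for Fos, Fosb, Jun, Junb, Atf3, Ier3 and Gadd45b, 7 of the 10 genes, were used. Egr1, Ier2 and Myc were not searched. Each line gives the 120 bases before the annotated start, 5′ to 3′ on the strand of the gene. Capitals mark the sequences searched for. They are TGACGT, the core of a cyclic AMP response element (CRE), in Fos and on the opposite strand in Atf3, TATAAA in Fos, TGACATCA in Jun, and the NF-kappaB site on the opposite strand in Ier3. Junb held none of them in these 120 bases.
Fos, chr12:85473770-85473889, plus strand: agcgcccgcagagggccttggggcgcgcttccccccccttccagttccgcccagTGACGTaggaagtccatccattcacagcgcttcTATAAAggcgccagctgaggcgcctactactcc
Jun, chr4:95052223-95052342, minus strand: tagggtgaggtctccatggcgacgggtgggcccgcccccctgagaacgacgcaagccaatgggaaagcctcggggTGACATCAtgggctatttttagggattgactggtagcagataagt
Junb, chr8:84978749-84978868, minus strand: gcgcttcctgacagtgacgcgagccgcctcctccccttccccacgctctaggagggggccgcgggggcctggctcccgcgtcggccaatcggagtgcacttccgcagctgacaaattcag
Atf3, chr1:191183334-191183453, minus strand: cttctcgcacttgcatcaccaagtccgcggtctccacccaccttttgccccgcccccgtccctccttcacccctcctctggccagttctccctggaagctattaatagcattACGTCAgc
Ier3, chr17:35821593-35821712, plus strand: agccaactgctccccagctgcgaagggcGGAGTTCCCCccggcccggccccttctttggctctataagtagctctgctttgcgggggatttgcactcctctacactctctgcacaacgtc

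Over the whole promoter entries, from 250 bases before to 50 after the start and on both strands, the NF-kappaB site was found in 3 of the 7 genes, Fos, Fosb and Ier3, and in 4.51% of the 32851 promoters of the table. The E-box CACGTG was found in Gadd45b and in 7.15% of all promoters. The CArG box of serum response factor (1.63% of promoters), the full CRE TGACGTCA (1.79%), the AP-1 site TGACTCA (5.2%) and the STAT site TTCNNNGAA (8.3%) were in none of the 7. The remaining searches were added after the sequences were seen: TGACGT was in Fos and Atf3 and in 7.51% of promoters, TGACATCA in Jun and in 3.62%, and TATAAA in Fos, Gadd45b and, from the first transcribed base on, Junb, and in 13.6%. TGACGT overlaps the full CRE. A match describes these letters only, and no binding was measured.

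Fos, whose product pairs with Jun proteins, was nearly silent in sham livers and present in every CT26 liver. Its gene lies at chr12:85473890-85477274. Its levels were 0.246 and 0.407 CPM in the sham livers, from 10 and 18 counts, 8.2 and 4.3 CPM in the intra-C livers, and 51.6 and 5.37 CPM in intra-S replicates 1 and 2. Every CT26 liver was above both sham livers, and intra-S replicate 2 lay between the 2 intra-C livers. In intra-S the log2 fold change against sham was 6.42 ± 1.20 (SE, n = 2 livers per group, adjusted p = 0.0259, edgeR's quasi-likelihood test), and without replicate 1 it was 4.02. The intra-S call of Fos held in 9 of 15 alternative settings. In intra-C the log2 fold change was 4.24 ± 1.12, with an adjusted p of 0.0731.

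Fosb, the closest relative of Fos, stayed at the edge of detection. It had 6 and 2 counts in the sham livers, 21 and 10 in intra-C and 16 and 5 in intra-S. No comparison was called. The log2 fold change was 2.11 ± 1.05 in intra-C (adjusted p = 0.251) and 1.58 ± 1.05 in intra-S (adjusted p = 0.361), and 0.35 in intra-S without replicate 1. Fosb lies at chr7:19302696-19310118.

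Jun, the classical partner of Fos in AP-1, was higher in all 4 CT26 livers than in either sham liver. It was at 9.07 and 6.32 CPM in sham, 32.8 and 26.4 CPM in intra-C and 210 and 23.2 CPM in intra-S. Intra-S replicate 2 was below both intra-C livers, whereas replicate 1 was far above every other liver. The log2 fold change was 3.92 ± 0.96 in intra-S, just inside the threshold (adjusted p = 0.0497), and 1.60 without replicate 1. Jun was called in 7 of 15 alternative settings. The call was lost with library size without TMM (adjusted p = 0.0503), in a fit of only the 2 groups compared (0.107), with limma on log2(TPM + 1) and log2(TPM + 0.1) (0.104 and 0.0922), and without either sham or either intra-C liver (0.109 to 0.279). In intra-C it was 1.95 ± 0.88 (adjusted p = 0.216). Jun lies at chr4:95049036-95052222, and 689 bases of its exons overlap the antisense gene Junos. Junos had 22 to 35 counts in the sham and intra-C livers and 65 and 69 in the intra-S livers, against 7216 and 945 for Jun.

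Junb, which forms AP-1 that often restrains Jun, was one of the 2 genes called in both comparisons with sham. Its levels were 4.68 and 9.01 CPM in sham, 44.7 and 28.2 CPM in intra-C and 108 and 54.4 CPM in intra-S. The 3 groups did not overlap, and sham was lowest and intra-S highest. The log2 fold change was 2.41 ± 0.48 in intra-C (adjusted p = 0.0368) and 3.57 ± 0.50 in intra-S (adjusted p = 0.0133). Without intra-S replicate 1 the intra-S log2 fold change was 2.99. Junb lies at chr8:84976909-84978748 in RefSeq. In its longer GENCODE model, chr8:84974484-84978718, 173 bases of its exons overlap Prdx2, an abundant peroxidase gene on the other strand. Prdx2 went the other way, from 116 and 117 CPM in sham to 83.9 to 97.3 CPM in the CT26 livers.

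Egr1, a zinc finger factor induced by growth factors, was the other gene called in both comparisons. It rose from 0.912 and 1.83 CPM in sham to 32.6 and 19.5 CPM in intra-C and 146 and 47.0 CPM in intra-S. The groups again did not overlap. The log2 fold change was 4.24 ± 0.67 in intra-C, which is 18.9-fold (adjusted p = 0.0221), and 6.13 ± 0.73 in intra-S, which is 70.0-fold (adjusted p = 0.00911). Intra-S replicate 2 on its own was 34.1-fold above sham, in a fit with 1 intra-S liver.

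Atf3, a stress-induced factor that can pair with Jun, was high in a single liver. It was at 1.03 and 1.18 CPM in sham, 2.80 and 1.86 CPM in intra-C and 52.2 and 1.50 CPM in intra-S. Intra-S replicate 2 lay below both intra-C livers. The log2 fold change in intra-S was 4.59 ± 1.43 (adjusted p = 0.0895) with replicate 1 and 0.44 without it. Atf3 lies at chr1:191170296-191183333.

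**Figure D1:**
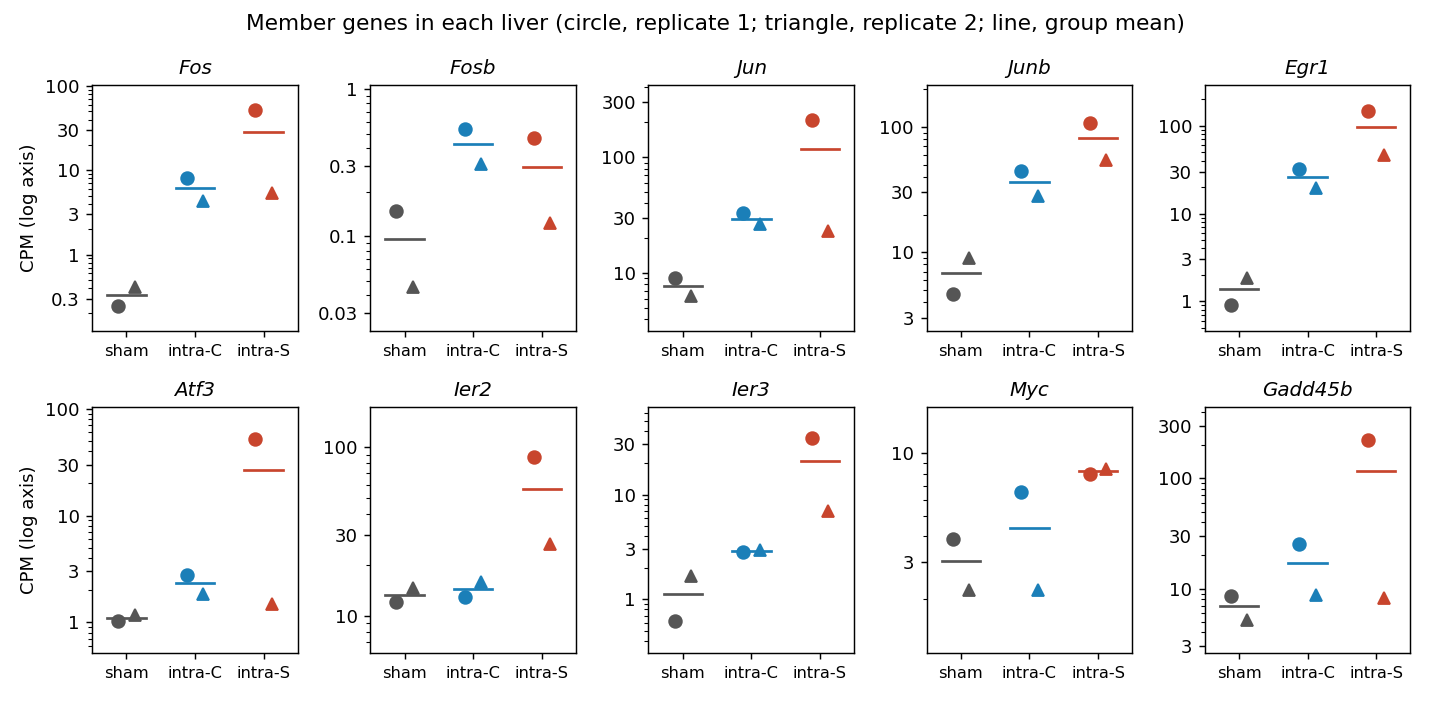
Level of each gene in each liver in TMM-normalized CPM, with a log axis of its own for each gene; circles are replicate 1, triangles replicate 2 and lines the mean of the 2 livers. Junb and Egr1 lie higher in intra-C than in sham and higher again in intra-S, without overlap, whereas for Atf3 and Gadd45b only intra-S replicate 1, at 52.2 and 224 CPM, stands far from the rest.

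Ier2 and Ier3, small early response genes that encode a nuclear regulator and a regulator of cell survival, were highest in the intra-S livers and were not called in intra-C. Ier2 was at 12.02 and 14.7 CPM in sham, 13.0 and 15.9 CPM in intra-C and 86.8 and 26.5 CPM in intra-S. Sham and intra-C overlapped (log2 fold change 0.12, 95% interval −1.11 to 1.34), and the sign turned to −0.14 with library size alone, a scaling that shifted the median of all genes by −0.26. The intra-S log2 fold change of Ier2, 2.09 ± 0.53, missed the threshold (adjusted p = 0.0546), and without replicate 1 it was 1.00.

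Ier3 was at 0.616 and 1.65 CPM in sham, 2.85 and 2.94 CPM in intra-C and 34.4 and 6.97 CPM in intra-S, with no overlap between the groups. Its log2 fold change in intra-S was 4.18 ± 0.85 (adjusted p = 0.0322) and 2.61 without replicate 1. The intra-S call of Ier3 held in 8 of 15 alternative settings. In intra-C the log2 fold change was 1.34 ± 0.79 (adjusted p = 0.328). Ier2 lies at chr8:84661331-84662852 and Ier3 at chr17:35821713-35822911.

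Myc, a driver of ribosome production and cell growth, was the only one of the 10 with nearly equal levels in the 2 intra-S livers. It was at 3.89 and 2.20 CPM in sham, 6.54 and 2.20 CPM in intra-C and 7.99 and 8.39 CPM in intra-S. Both intra-S livers were above the other 4, and sham and intra-C overlapped. The intra-S log2 fold change was 1.43 ± 0.55 (adjusted p = 0.14), and 1.47 without replicate 1. Myc lies at chr15:61985341-61990361.

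Gadd45b, a stress sensor that acts on MAP kinase kinases, had the highest single value, 224 CPM in intra-S replicate 1. Replicate 2 was at 8.19 CPM, below sham replicate 1 at 8.57 CPM and above sham replicate 2 at 5.21 CPM. The intra-C livers were at 25.2 and 8.75 CPM. The intra-S log2 fold change of 4.07 ± 1.40 was not called (adjusted p = 0.112) and was 0.26 without replicate 1. Gadd45b lies at chr10:80930091-80932204.

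Counted together, 2 of the 10 genes were called higher in intra-C than in sham, Junb and Egr1, where 4.92% of all tested genes were. In intra-S 5 of the 10 were called higher, Fos, Jun, Junb, Egr1 and Ier3, against 6.78% of tested genes. None was called lower in either comparison, against 2.38% and 3.95% of tested genes. The median log2 fold change of the 10 genes was 1.64 in intra-C and 3.999 in intra-S, beside 0.01 and 0.04 over all tested genes. Without intra-S replicate 1, 6 genes were called higher in intra-S, beside 9.58% of tested genes, and 4 in intra-C, where Fos and Jun joined, beside 14.5%. None of the 10 was called lower in that fit, in which 12% of tested genes were called lower in intra-C and 6.93% in intra-S. The median in intra-S was then 1.53. Without intra-S replicate 2, 8 were called higher in intra-S, beside 17.3%, and 6 in intra-C, beside 14.4%. Without intra-C replicate 1 none of the 10 was called in intra-C, beside 0.352%, and 2 were in intra-S, beside 2.13%. Without intra-C replicate 2 these were again none, beside 0.323%, and 2, beside 1.97%. Without either sham liver no gene of the table was called in any comparison.

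Both intra-C livers were above both sham livers for 8 of the 10 genes, beside 34.4% of all tested genes, and the exceptions were Ier2 and Myc. Both intra-S livers were above both sham livers for 8 genes as well, beside 30.4%, with Fosb and Gadd45b as the exceptions. Both comparisons share the sham livers.

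**Figure D2:**
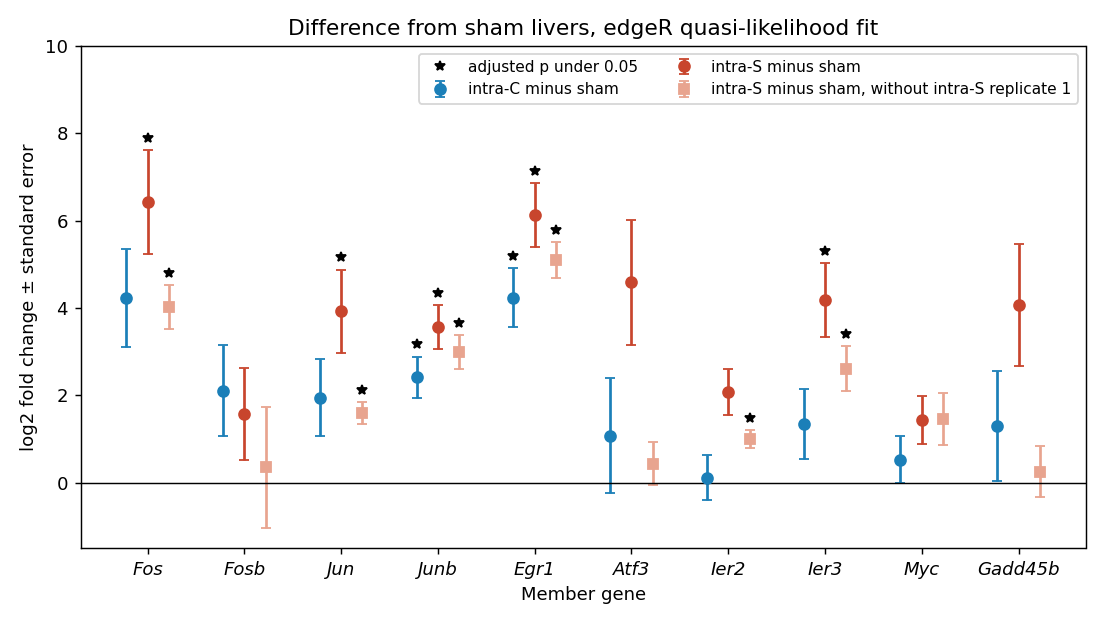
Log2 fold change against sham with its standard error for each gene, for intra-C (blue), intra-S (red) and intra-S without replicate 1 (light squares); stars mark an adjusted p under 0.05. Without replicate 1, Atf3 and Gadd45b drop to 0.44 and 0.26, Egr1 stays at 5.09 and Myc moves from 1.43 to 1.47.

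Whether the livers of the 2 tumor groups differed was tested directly. In intra-S against intra-C, edgeR's quasi-likelihood test called 0 of the 10 genes and 0% of all tested genes. At an unadjusted p under 0.05, 5 genes were higher in intra-S, Junb, Egr1, Atf3, Ier2 and Ier3, beside 6.99% of tested genes. DESeq2 called 3 higher, Egr1, Ier2 and Ier3, with adjusted p-values of 0.0425, 0.015 and 0.0102, where it called 1.55% higher among the genes to which it gave an adjusted p. Both intra-S livers were above both intra-C livers for 5 genes, Junb, Egr1, Ier2, Ier3 and Myc, beside 21.9% of tested genes. The widest intervals were those of Atf3 (log2 fold change 3.52, 95% interval 0.28 to 6.76) and Gadd45b (2.77, −0.39 to 5.92). Without intra-S replicate 1 the sign turned for 4 genes, Fos (−0.22), Jun (−0.35), Atf3 (−0.64) and Gadd45b (−1.06), whereas Egr1 (0.85), Ier2 (0.88), Ier3 (1.27), Myc (0.93) and Junb (0.58) kept theirs. Fosb was below 0 in both fits, at −0.53 with all livers and −1.76 without that liver.

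The spread between livers of one group was examined over the 12680 tested genes that averaged at least 1 CPM, which left out Fosb. In intra-S, 5 of the 9 genes lay over 4-fold apart, beside 5.62% of these 12680 genes. All 5 were higher in replicate 1, where 2.43% of genes were. Atf3 was 34.9-fold higher, Gadd45b 27.3-fold, Fos 9.60-fold, Jun 9.08-fold and Ier3 4.94-fold. Ier2 (3.27-fold), Egr1 (3.12-fold) and Junb (1.99-fold) leaned the same way and Myc did not (0.952-fold). The median log2 ratio of replicate 1 to replicate 2 was 2.30 over the 9 genes and −0.01 over all 12680. No gene of the 9 was over 4-fold apart between the sham livers (0.931% of genes) or between the intra-C livers (1.03%).

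**Figure D3:**
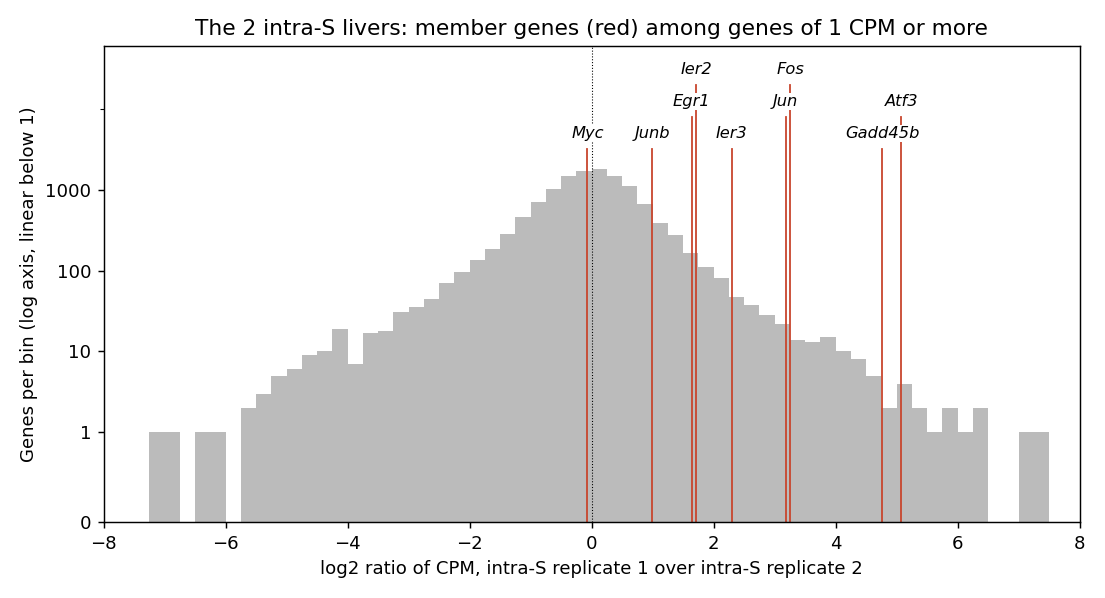
Number of genes (log axis, linear below 1) by the log2 ratio of CPM in intra-S replicate 1 over replicate 2, for the 12680 genes of at least 1 CPM on average; red lines mark 9 of the genes described. Myc sits at the center near 0, and Atf3 and Gadd45b lie at 5.08 and 4.76, in the right tail.

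Several other gene groups moved with intra-S replicate 1, and their part in these differences was not tested. Of 30 further immediate early genes at this level, 10 were over 4-fold higher in replicate 1 and 1 over 4-fold lower. The 7 heat shock genes summed to 725 CPM in replicate 1, 1591 in replicate 2 and 1430 to 2716 in the other livers, and none was at 0. The 11 neutrophil markers summed to 1084 CPM in replicate 1 and 433 in replicate 2, 289 and 644 in the intra-C livers and 3.84 and 5.07 in the sham livers, where Camp, Mpo and Elane were at 0. The 7 erythroid markers summed to 1726 and 1202 CPM in the intra-S livers and 228 to 410 in the other 4. The 6 endothelial markers summed to 334 and 199 CPM in intra-S, 225 and 240 in intra-C and 79.8 and 89.1 in sham. Within that list Lyve1 was at 112 and 14.2 CPM in intra-S replicates 1 and 2, and Clec4g, at 36.9 and 70.0 CPM, went the other way. The 9 monocyte and macrophage markers summed to 501 CPM in replicate 1 and 729 in replicate 2. Cd14 (71.6 and 33.0 CPM), Cd68 (19.5 and 18.2) and Itgam (16.2 and 15.0) went the other way. The 8 hepatocyte markers ranged from 108204 to 186524 CPM, with the highest value in intra-S replicate 1.

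In levels per gene length, as TPM deposited by the authors, the order of the genes changed between groups. In sham Ier2 was highest at 17.8 and 21.6 TPM and did not overlap Gadd45b, the next, at 15.2 and 9.23 TPM. Gadd45b overlapped Junb and Junb overlapped Jun, and Fos and Fosb were lowest. In intra-C Junb had the highest mean, 38.8 TPM, and Junb, Gadd45b, Ier2 and Jun each overlapped the next in the order, down to Egr1, which did not overlap Fos below it. In intra-S no neighbors in the order could be separated except Myc, at 5.89 and 6.62 TPM, from Fosb below it.

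The balance of AP-1 subunits was also read per gene length. Jund, the Jun family member that most resting cells express, was the most abundant of the Fos and Jun family genes in both sham livers at 13.5 and 13.1 TPM. Junb exceeded it in every CT26 liver. The Jun family genes Jun, Junb and Jund summed to 25.6 and 28.5 TPM in sham, 91.0 and 70.0 TPM in intra-C and 267 and 83.7 TPM in intra-S. The Fos family genes Fos, Fosb and Fosl2 summed to 2.08 and 1.60 TPM in sham, 25.4 and 10.8 TPM in intra-C and 59.3 and 12.9 TPM in intra-S. The Jun family sum was above the Fos family sum in every liver.

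Fosl2, the Fos relative that lasts longer after a signal, made up most of the Fos family sum in every liver but intra-S replicate 1. It was at 1.73 and 1.14 TPM in sham, 17.7 and 6.52 TPM in intra-C and 15.9 and 7.97 TPM in intra-S. Fosl2 was called in both comparisons, with a log2 fold change of 3.29 ± 0.62 in intra-C (adjusted p = 0.0333) and 3.37 ± 0.62 in intra-S (adjusted p = 0.0255), or 2.72 in intra-S without replicate 1. In intra-S replicate 1 Fos, at 43.2 TPM, was above Fosl2.

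**Figure D4:**
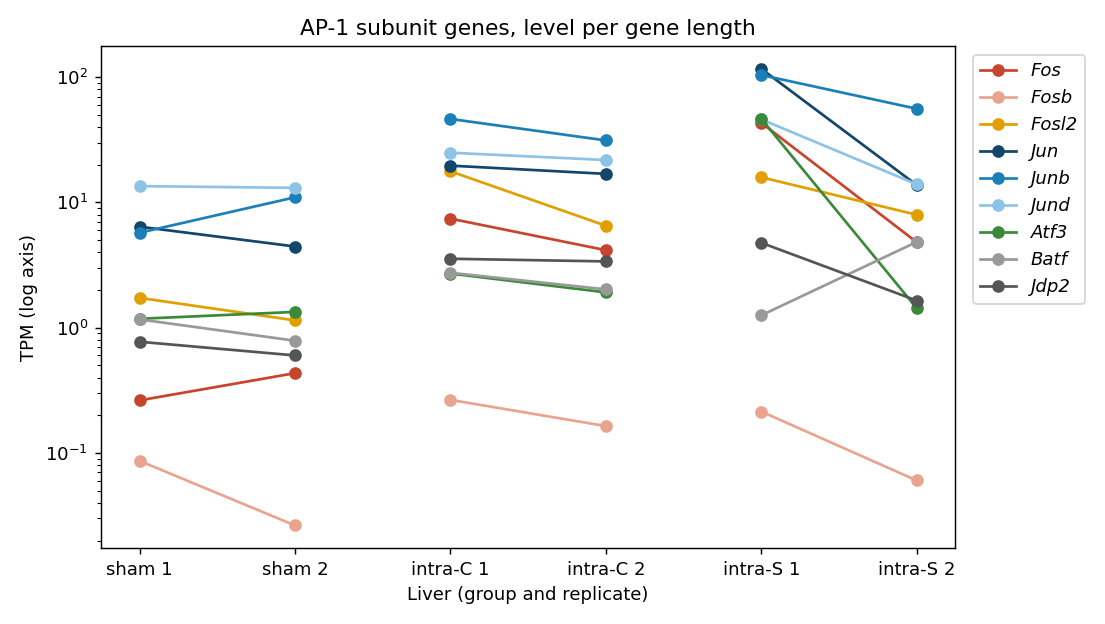
Level per gene length (TPM, log axis) of AP-1 subunit genes in each liver, with lines joining the livers of one group. Jund leads in sham at 13.5 and 13.1 TPM, Junb leads in intra-C and in intra-S replicate 2, and Jun, Atf3 and Fos drop steeply from intra-S replicate 1 to replicate 2.

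Among 13 tested genes of the wider AP-1 family, 2 were called higher in intra-C, Fosl2 and Maf, and 3 in intra-S, Fosl2, Jdp2 and Maf. For this list and those below, 4.92% of all tested genes were called higher in intra-C and 6.78% in intra-S. The shares called lower were 2.38% and 3.95%. The shares without intra-S replicate 1 are those given for the 10 genes above. Maf, a bZIP factor of macrophages and other cells, was tightly grouped at 18.2 and 16.4 CPM in sham, 38.5 and 39.6 in intra-C and 47.0 and 49.5 in intra-S. Its log2 fold changes were 1.18 (adjusted p = 0.0195) and 1.48 (adjusted p = 0.00918). Jdp2, a repressor that binds AP-1 sites, had nearly equal values in the 2 comparisons, 2.52 in intra-C (adjusted p = 0.0525) and 2.54 in intra-S (adjusted p = 0.0435). Without intra-S replicate 1 they were 2.53 and 1.51. Without that liver 6 of the 13 were called higher in intra-C, and 4 higher and 1 lower in intra-S.

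Of 36 other immediate early genes tested, 2 were called higher in intra-C, beside 4.92% of all tested genes, and 7 in intra-S, beside 6.78%. None was called lower. The median log2 fold changes were 1.08 and 1.71. The intra-C calls were Gem, a small GTPase (log2 fold change 2.37, adjusted p = 0.032), and Mcl1, a survival protein (0.91, adjusted p = 0.0441). The largest in intra-S was Btg2, an antiproliferative gene, at 10.8 and 7.36 CPM in sham, 137 and 68.3 in intra-C and 699 and 103 in intra-S. Btg2 (5.47, adjusted p = 0.0232), Sgk1, a stress-induced kinase (4.25, adjusted p = 0.0427), and Dusp5, a phosphatase of ERK (3.83, adjusted p = 0.0352), led the called genes of this list. With intra-S replicate 1 left out, 7 of 37 tested genes were called higher and 1 lower in intra-S, and 15 higher and 2 lower in intra-C. Klf2 then lost its intra-S call (adjusted p = 0.0513), Csrnp1 gained one (adjusted p = 0.044), and Ccn1, a matrix protein gene, was the one called lower (−2.39, adjusted p = 0.00705). Btg2 was then at 3.51, Sgk1 at 2.46 and Dusp5 at 3.41 in intra-S.

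Of 23 genes of SRF, CREB and the MAP kinases, which act upstream of the immediate early response, 2 were called higher and 1 lower in each comparison with sham. Elk3, a cofactor of SRF, and Rps6ka3, a kinase below ERK, were higher by 1.21 and 0.98 in intra-C and by 1.08 and 1.02 in intra-S. Map2k3, a kinase above p38, was lower, at −1.17 in intra-C (adjusted p = 0.0268) and −1.03 in intra-S (adjusted p = 0.0287). The median log2 fold change of the 23 genes was 0.14 in intra-C and 0.21 in intra-S with all livers. Without intra-S replicate 1 it was 0.15 and −0.13, and the calls no longer matched between the comparisons.

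Primary targets of IL-6 and STAT3 were called in 5 of 9 genes in intra-C and 6 of 9 in intra-S, all higher. Socs3, the feedback inhibitor of this pathway, was at 1.40 and 2.22 CPM in sham, 36.1 and 24.1 in intra-C and 9.86 and 31.0 in intra-S, so that intra-S replicate 1 was the lowest of the CT26 livers. Its log2 fold changes were 4.05 (adjusted p = 0.0195) and 3.49 (adjusted p = 0.0213). Osmr, a cytokine receptor subunit, was higher by 3.24 and 2.68. Cebpd was called in intra-S (2.76) and Bcl3 in intra-C (2.07). When intra-S replicate 1 was left out, 6 were called in intra-C and 7 in intra-S, with Socs3 at 4.09 in intra-S. The median log2 ratio of intra-S replicate 1 to replicate 2 over these 9 genes was 0.04.

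Genes linked to the products of the members were counted in the same way. Of 11 tested genes taken as AP-1 targets, 1 was called in intra-C and 6 in intra-S, all higher. Cd44, an adhesion receptor, was called in both (2.46 and 2.70), and Plaur, the urokinase receptor, Timp1, a protease inhibitor, and Mmp9, a gelatinase of neutrophils, were called in intra-S (5.27, 6.95 and 4.73). Timp1 had 0 and 2 counts in sham, so its fitted value depends on the prior count. These counts were, without intra-S replicate 1, 7 of 12 in intra-C and 9 of 12 in intra-S, all higher, with Plaur at 4.02, Timp1 at 7.71 and Mmp9 at 3.74 in intra-S. The median log2 ratio of intra-S replicate 1 to replicate 2 was −1.34 over the 8 of these genes that averaged at least 1 CPM. Of 9 genes of the integrated stress response, 1 was called in intra-C, Chac1 (2.89), and 2 in intra-S, Chac1 (2.87) and Asns (6.11). These were 4 and 2 without intra-S replicate 1.

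Of 10 tested genes of the Myc and Max network, none was called in intra-C and 2 were in intra-S, the Max partners Mxd3 (5.78, from 2 and 0 counts in sham) and Mxd1 (1.98). Leaving out intra-S replicate 1, 3 were called in intra-C and 2 in intra-S, with Mxd1 at 1.12. Mlx, the most abundant of them in mean TPM, differed from sham by −0.01 and 0.01. None of 17 growth genes taken as Myc targets was called in either comparison, and their medians were −0.26 and −0.29. Without intra-S replicate 1, 4 were called lower in intra-C (Srm, Nop56, Polr1b and Fbl, −0.55 to −0.84, where 12% of all tested genes were called lower) and 1 higher in intra-S, Nme1 (0.66, adjusted p = 0.0314). Nme1 was the most abundant in mean TPM and was at 0.09 and 0.26 with all livers. The other Gadd45 genes, Gadd45a and Gadd45g, were not called with all livers, Gadd45a was called lower in intra-C without intra-S replicate 1 (−2.19, adjusted p = 0.0431), and Gadd45g, the more abundant, spread from 1.77 to 53.3 CPM between the sham livers alone.

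Heat shock, clock and proliferation genes were counted as well. None of 7 heat shock genes was called with all livers, with Hspa8 at 518 CPM in intra-S replicate 1 and 955 or more in the other livers, and Hsp90aa1 at 166 and at 293 or more. Of 11 clock genes, 1 was called, Tef, lower in intra-S (−1.01, adjusted p = 0.0497), and Nr1d2 was not called. Proliferation genes were called higher in 2 of 8 in intra-C and 5 of 8 in intra-S, whereas Pcna and Mcm5, the most abundant of them in mean TPM, were not called. Without intra-S replicate 1, 3 heat shock genes were called higher in intra-C and 1 lower in intra-S, 3 clock genes higher and 3 lower in intra-C and 3 lower in intra-S, and 3 and 5 proliferation genes higher.

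The cell type markers were read beside these genes, as RNA of other cells in the tissue. Neutrophil markers were called higher in 11 of 11 in both comparisons with sham, including S100a8 and S100a9, and monocyte and macrophage markers, including Lyz2 and Clec4f, in 7 of 9. Endothelial markers were called higher in 3 of 6 in intra-C and 4 of 6 in intra-S. Erythroid markers were called in 0 of 7 in intra-C and 7 of 7 in intra-S, fibroblast markers in 0 and 3 of 8, cholangiocyte markers in 0 and 1 of 5, hepatocyte markers in 1 and 1 of 8, and lymphocyte markers in 0 of 9 in both. In the fit without intra-S replicate 1, the markers called higher in intra-C and intra-S were 11 and 11 of neutrophils, 9 and 8 of monocytes and macrophages, 6 and 5 of endothelium, 0 and 6 of erythroid cells, 1 and 5 of fibroblasts, 1 and 2 of cholangiocytes, 6 and 2 of hepatocytes and 0 and 1 of lymphocytes, and 1 of hepatocytes and 1 of fibroblasts were called lower in intra-C. The part of these cells in the levels of the AP-1 genes was not tested.

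Across the 6 livers, the log2 CPM of Junb and Egr1 followed each other most closely among pairs of these genes (Pearson's r = 0.997), followed by Fos and Egr1 (0.980) and Atf3 and Gadd45b (0.976). Ier2 and Fosb were the least alike (0.346). These are descriptions of 6 livers that share 3 groups and 1 library that stands apart. Among 9282 other genes (9283 for Fosb) averaging at least 5 CPM, those with the highest r were Tanc2 for Fos (0.997), Crtc3 for Fosb (0.992), Mex3c for Jun (0.998), Egr1 for Junb, Plpp1 for Egr1 (0.997), Ero1a for Atf3 (0.997), Bsg for Ier2 (0.9996), Ccdc82 for Ier3 (0.999), Senp7 for Myc (0.969) and Cdkn1b for Gadd45b (0.996).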

How the data were processed

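Poly(A) RNA of 6 mouse livers, 2 each of sham, intra-C and intra-S on day 21, was analyzed. The authors aligned reads to mm10 with HISAT2 2.1.0, counted uniquely mapped exon reads with featureCounts (Subread 2.0.6) and deposited raw counts per gene. The authors also deposited TPM, calculated from these counts. The gene annotation and the strand setting are not given in the sources used here.

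From the counts, CPM and log2 fold changes were computed here with R 4.3.3 and edgeR 4.0.16 (TMM, filterByExpr with a count minimum of 10, quasi-likelihood test, 1 fit over the 6 livers, two-sided, Benjamini-Hochberg adjustment over 16370 genes, threshold 0.05). Alternatives used DESeq2 1.42.0 and limma 3.58.1 on log2(TPM + 1) and log2(TPM + 0.1), and other scalings, filters and left-out livers. Gene positions and promoters came from RefSeq, overlaps from GENCODE. Intervals and limits cover counting error or spread between livers only. The fit was first run on simulated counts. These had the same spread in every group, so that run does not cover livers as far apart as those of intra-S.

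The genes described and the 20 other gene lists were chosen with earlier results of these data known. All 10 genes are named throughout. From each pathway list, the genes named are the 3 with the largest called change in each direction, or the most abundant one where none was called, and from cell type, heat shock, clock and proliferation lists the 2 most abundant in mean TPM. Jund, Junos, Prdx2, Camp, Mpo, Elane, Cd14, Cd68, Itgam, Klf2, Csrnp1, Ccn1, Srm, Nop56, Polr1b and Fbl were named outside this rule, after their values were seen.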

Additional observations from a re-analysis of the deposited data

How the results depend on the processing

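In intra-C against sham, DESeq2 called 2711 genes in place of 1195 and a fit of only the 2 groups compared called 4771, of which 4 were among the 10 genes described (2 in the fit over all groups). In intra-S against sham, DESeq2 called 3400 genes in place of 1756, 8 of them among the 10 (5 over all groups), and a fit of only the 2 groups compared called 392, 2 of them among the 10. limma on log2(TPM + 1) called 2238 genes in intra-S, 2 of them among the 10. In intra-S against intra-C, DESeq2 called 506 genes and 3 of the 10, where edgeR called 0. The causes were not tested. Library size without TMM shifted the median log2 fold change of all genes by −0.26 in intra-C and −0.27 in intra-S, and gave Ier2 in intra-C −0.14, whereas limma gave it −0.068 on log2(TPM + 1) and −0.072 on log2(TPM + 0.1).

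Leaving out a liver of a pair assumes that the lone liver varies like the other groups. Genes called then ranged from 0 to 4658 in intra-C against sham, from 0 to 5693 in intra-S against sham and from 0 to 2884 between the tumor groups, and of the 10 genes 0 to 6, 0 to 8 and 0 to 8. The count was 0 without either sham liver. It was 65 and 61 in intra-C without intra-C replicates 1 and 2, and 543 and 492 in intra-S. Without intra-S replicate 1 it was 4658 and 2900, and without intra-S replicate 2 it was 4591 and 5693. The log2 fold change of Ier2 in intra-C then ranged from −0.016 to 0.26 and that of Myc from −0.47 to 1.13. Between the tumor groups it ranged from −0.22 to 3.04 for Fos, −1.76 to 0.13 for Fosb, −0.35 to 2.83 for Jun, −0.64 to 4.47 for Atf3 and −1.06 to 3.73 for Gadd45b. Alternatives to the counts of genes whose groups do not overlap were chosen after seeing the data, and with each liver left out in turn they ranged from 5 to 9 for intra-S above intra-C (5 with all livers), from 8 to 10 for intra-S above sham (8) and were 9 for intra-C above sham (8). TPM in place of CPM, or library size without TMM, gave 7 for intra-C above sham and left the other two as they were.

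Replicate numbers did not pair the livers: deviations from the group means correlated by −0.03 between sham and intra-C, 0.14 between sham and intra-S and 0.11 between intra-C and intra-S over 9283 genes. A fit with the replicate number as a block called 932, 1507 and 0 genes, and 1 of the 10 in intra-C, Egr1, and 4 in intra-S. Fosb had no value with at least 10 counts required in every liver, and no adjusted p from DESeq2 between the tumor groups. Of 266 results under settings that leave out no liver, 243 kept their direction and side of the threshold, as did 130 of 180 with a liver left out. Depth limited Fosb, with 2 to 21 counts per liver, more than the other genes.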
